A study of Mus musculus with 6 samples.

Results

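The genes described here make histone H3.3 and the proteins that carry histone H3 to DNA. They are the H3.3 genes H3f3a and H3f3b, the HIRA complex genes Hira, Ubn1 and Cabin1, the chaperone genes Daxx and Atrx of a second deposition pathway, the ASF1 genes Asf1a and Asf1b, and Nasp. They were chosen by symbol, 10 genes by name, and 9 of them were analysed in a table of 22770 gene rows; Atrx is not analysed here. The data are ribosome footprints, the short RNA stretches that ribosomes shield from nuclease, from round spermatids, the haploid cells of the testis that later elongate into sperm. There were 3 mouse samples of genotype Eif5a SKO and 3 wild-type samples, all from testis. EIF5A is a translation factor that helps ribosomes through difficult stretches of coding sequence. The sources used here do not give the meaning of SKO, the driver and cell type of the deletion, or the strain and age of the mice, and the table's columns call the same genotype cKO. The design text of the series describes round spermatids sorted from 3 mice of each genotype, but for an accessibility assay. Nothing in the labels of these footprint samples ties a library to 1 mouse, so p-values reflect only the scatter among the 6 libraries, which may be technical.

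H3.3 is the replacement form of histone H3. Unlike the canonical H3 proteins, which are laid down behind the replication fork, it can be placed into chromatin at any time, and both of its genes encode the same protein. The HIRA complex places H3.3 in active chromatin, with HIRA as the scaffold, ubinuclein 1 (Ubn1) as the subunit that recognises H3.3 and calcineurin-binding protein 1 (Cabin1) as a further subunit. DAXX binds H3.3 and, with ATRX, places it in heterochromatin, including the repeats around centromeres. ASF1A and ASF1B pass new H3-H4 dimers to the other chaperones, and NASP guards the pool of soluble H3-H4. In male germ cells H3.3 enters the silenced sex chromosomes during meiosis, and in elongating spermatids most histones are then replaced by transition proteins and protamines.

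The windows around the annotated starts of H3f3a, H3f3b and Nasp are shown because these 3 members had the highest footprint densities. The H3.3 genes also share a protein, while their windows differ in sequence. Each window is from RefSeq on GRCm38.p6, runs from 250 bases before to 50 bases after the start, and is written 5′ to 3′ on the gene's strand. Capitals mark the letters CCAAT, the letters TGACG and the letters TATAAA, each as written or as its reverse complement. All 3 windows lie on the minus strand, at chr1:180813556-180813855 for H3f3a, chr11:116024455-116024754 for H3f3b and chr4:116627902-116628201 for Nasp. The start behind the H3f3a window is the 5′ end of its annotated gene span, while those behind the H3f3b and Nasp windows lie inside the gene spans, 1535 and 725 bases from their 5′ ends.
H3f3a: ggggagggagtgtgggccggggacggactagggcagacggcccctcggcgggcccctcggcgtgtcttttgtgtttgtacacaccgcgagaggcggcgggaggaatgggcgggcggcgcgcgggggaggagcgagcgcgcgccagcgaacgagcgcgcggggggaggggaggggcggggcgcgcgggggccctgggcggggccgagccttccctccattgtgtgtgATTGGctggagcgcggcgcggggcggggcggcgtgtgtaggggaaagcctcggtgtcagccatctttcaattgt
H3f3b: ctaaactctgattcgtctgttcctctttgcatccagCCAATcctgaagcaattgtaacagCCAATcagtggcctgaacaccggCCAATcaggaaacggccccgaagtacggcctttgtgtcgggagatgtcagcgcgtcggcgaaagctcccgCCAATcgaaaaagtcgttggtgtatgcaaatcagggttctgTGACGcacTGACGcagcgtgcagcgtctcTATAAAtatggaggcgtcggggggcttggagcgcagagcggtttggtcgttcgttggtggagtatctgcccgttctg
Nasp: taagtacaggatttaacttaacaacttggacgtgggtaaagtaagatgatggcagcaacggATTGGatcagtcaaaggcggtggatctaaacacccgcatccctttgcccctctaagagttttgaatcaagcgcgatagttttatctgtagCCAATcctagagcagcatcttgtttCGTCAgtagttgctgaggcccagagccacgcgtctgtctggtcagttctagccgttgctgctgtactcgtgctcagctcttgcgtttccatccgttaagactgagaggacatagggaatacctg

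The H3f3b window held 4 matches to CCAAT, 2 matches to TGACG and 1 match to TATAAA, with none overlapping another. The H3f3a window held 1 match to CCAAT, on the other strand, and neither of the other motifs on either strand. The Nasp window held 2 matches to CCAAT and 1 match to TGACG. Of all 32851 windows in the RefSeq table, some of which belong to the same gene, 37.41% held CCAAT on either strand, and 1.06% held at least 4 matches. Of the 10 members 9 had a window with CCAAT, and Asf1b and Atrx held 4 matches as H3f3b did. TGACG was found in 20.81% of all windows and in 6 of the 10 members, and TATAAA in 13.62% of all windows and in H3f3b alone among the members. The base composition also differed, with 74.0% G and C in the H3f3a window, against a median of 52.7% over all windows. These are letter matches in a short window and say nothing of binding.

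The densities are FPKM, mapped fragments scaled by gene length and library size, as the authors deposited them. The length the authors divided by is not given in the sources used here, so levels of different genes are set side by side on the FPKM scale only. FPKM is also relative within a library: the 3 densest rows held 24.6% to 46.4% of a library's summed FPKM. The depth of the libraries is unknown. Rows at 0 FPKM numbered from 870 in SKO replicate 1 to 2243 in SKO replicate 2, so the libraries were unequal in this respect. Results are therefore given with the deposited values, after TMM-type scaling (division of each library by a trimmed mean of its ratios to a common library, factors 0.812 to 1.31), and as ratios between genes within a library, which no such scaling changes. Eif5a itself, the check of the labels, had 1.84, 1.93 and 2.99 FPKM in the SKO libraries and 34.2, 48.8 and 61.9 FPKM in the wild-type libraries (limma adjusted p = 0.00641). Of the 8 round spermatid markers all had footprints, with a summed density of 904 to 1947 FPKM in SKO and 692 to 1263 FPKM in wild type. A higher SKO mean was found in 6 of the 8. Of the 15578 rows that averaged 1 FPKM or more, 9251 had a positive log2 fold change, SKO minus wild type. In 3 of the 8 markers all SKO libraries lay above all wild-type ones, beside 10.9% of those rows. Footprint density follows the amount of mRNA as well as its translation, and fewer cells of a type and less RNA per cell cannot be told apart in these bulk samples.

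The H3.3 genes had more footprints in SKO, H3f3b about 3-fold and H3f3a less, while Nasp and Hira had fewer. Neither with the deposited values nor with TMM-type scaling did any member pass the test. The test was limma, two-sided, on log2(FPKM + 1) of the 15578 rows that averaged 1 FPKM or more, adjusted over all of them by Benjamini-Hochberg, with a threshold of 0.05. It called 0 of the 9 members, beside 0.128% of all tested rows with the deposited values and 1.02% with TMM-type scaling. At an unadjusted p under 0.05 it called 1 member with the deposited values, H3f3b, higher in SKO, beside 8.15% of all rows in that direction, and 0 members lower, beside 2.83%. With TMM-type scaling it called 3 at that level, H3f3b higher, beside 8.9% of rows, and Hira and Nasp lower, beside 6.71%. After quantile normalization, which forces the same distribution on every library, H3f3b and Nasp passed the adjusted threshold, beside 2.86% of all rows. Across the 9 members the median log2 fold change was 0.32, against 0.13 for all tested rows, and 5 of 9 lay above the all-row median.

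**Figure D1:**
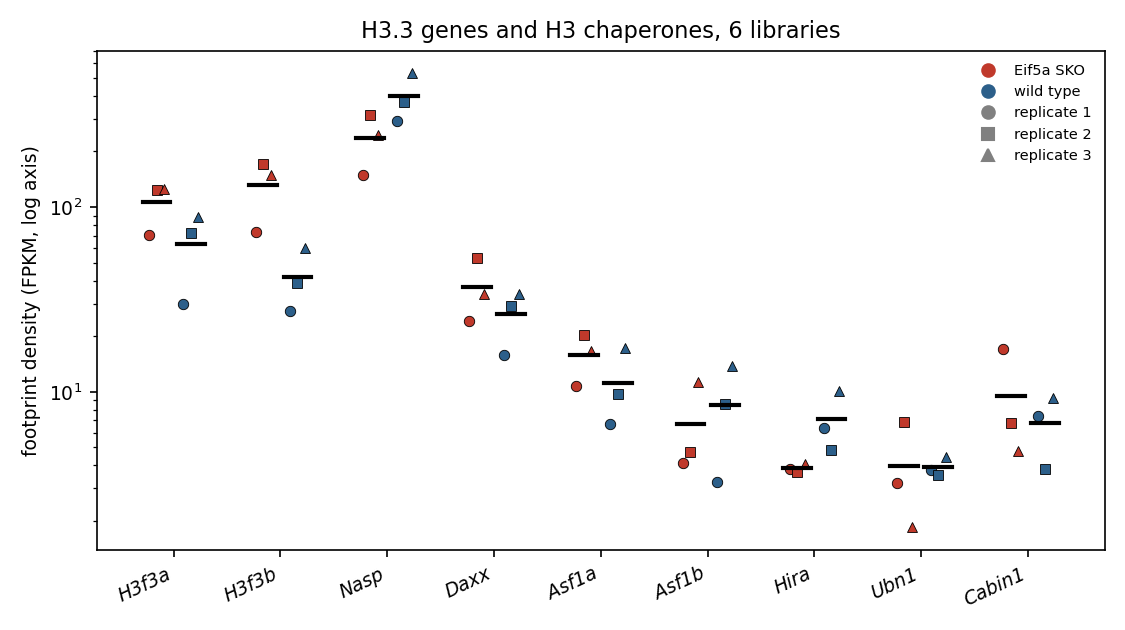
Footprint density (FPKM, log axis) of the 9 members in each library, with SKO libraries in red and wild-type libraries in blue, marker shapes for replicate numbers and bars for group means. The 3 SKO values of H3f3b, 73.2 to 171 FPKM, lie above the 3 wild-type values, 27.5 to 59.7 FPKM, and the 3 SKO values of Hira lie below its wild-type values.

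H3f3b (gene 15081, GRCm38 chromosome 11, 116021961 to 116026039) showed the largest difference among the members. It had 73.2, 171 and 149 FPKM in SKO replicates 1, 2 and 3, against 27.5, 38.8 and 59.7 FPKM in the wild-type replicates. Every SKO library lay above every wild-type library, a separation in that direction found in 10.9% of all tested rows. The means were 131 ± 51.5 FPKM in SKO and 42.0 ± 16.3 FPKM in wild type (SD, n = 3 each), a ratio of 3.13. The log2 fold change was 1.60 (SE 0.48, 95% interval 0.53 to 2.67, limma adjusted p = 0.278). With TMM-type scaling it was 1.43 (SE 0.27, interval 0.80 to 2.06, limma adjusted p = 0.0623), and after quantile normalization 1.32 (limma adjusted p = 0.0181).

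H3f3a (gene 15078, chromosome 1, 180802560 to 180813605) encodes the same protein. It had 70.2, 124 and 125 FPKM in SKO and 29.8, 72.0 and 88.4 FPKM in wild type. The groups overlapped, since SKO replicate 1 lay below wild-type replicates 2 and 3. The log2 fold change was 0.83 (SE 0.50, 95% interval -0.30 to 1.95, limma adjusted p = 0.587), and 0.66 with TMM-type scaling (interval -0.11 to 1.43, limma adjusted p = 0.392). After that scaling its groups no longer overlapped, at 82.8 to 116 FPKM in SKO and 36.7 to 79.4 FPKM in wild type, a separation found in 11.6% of all rows after scaling.

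The balance between the H3.3 genes lay towards H3f3b in SKO. The ratio of H3f3b to H3f3a was 1.04, 1.39 and 1.19 in the SKO libraries and 0.921, 0.538 and 0.675 in the wild-type libraries. On the FPKM scale as deposited H3f3b was thus the higher of the pair in each SKO library and H3f3a in each wild-type library. H3f3a reads may be shared with the copies described below. The order within the pair and the size of the ratio may therefore depend on how shared reads were counted. On the log2 scale the means were 0.26 ± 0.21 in SKO and -0.53 ± 0.39 in wild type (SD, n = 3 each), a difference of 0.79 or 1.72-fold. An exact permutation of the libraries (two-sided) gave p = 0.1, the lowest that the 20 possible splits can reach, and 0.15 after adjustment over the 3 planned ratios.

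Reads of H3f3a can be shared with near-identical copies, and the sources used here do not say how shared reads were counted. The pseudogenes H3f3a-ps1 (chromosome X) and H3f3a-ps2 (chromosome 16) carried footprint values as well, so the split of H3f3a reads is uncertain. H3f3a-ps1 had 15.3, 38.3 and 36.1 FPKM in SKO and 9.07, 12.7 and 17.1 FPKM in wild type. H3f3a-ps2 had 22.4, 48.7 and 47.9 FPKM in SKO and 12.8, 19.6 and 27.6 FPKM in wild type. Both had SKO means above the wild-type means, by 2.31-fold and 1.99-fold, with overlapping groups and no call (limma adjusted p = 0.424 and 0.488). With TMM-type scaling the groups of both no longer overlapped, beside 11.6% of all rows, and neither passed the test (limma adjusted p = 0.172 and 0.234). An antisense row, H3f3aos, named after its values were seen, had 4.17, 0.533 and 10.4 FPKM in SKO and 0.425, 5.43 and 12.1 FPKM in wild type, and counting by strand is not stated.

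Nasp (gene 50927, chromosome 4, 116601052 to 116628676) was the densest member in every library. It had 149.8, 317 and 247 FPKM in SKO, against 293, 370.2 and 529 FPKM in wild type. SKO replicate 2 lay above wild-type replicate 1, so the groups overlapped. The means were 238 ± 83.8 FPKM in SKO and 398 ± 120.2 FPKM in wild type (SD, n = 3 each). The log2 fold change was -0.76 (SE 0.46, 95% interval -1.80 to 0.28, limma adjusted p = 0.586). With TMM-type scaling the SKO libraries, at 177 to 242 FPKM, all lay below the wild-type libraries, at 361 to 475 FPKM, as in 9.85% of all rows after scaling. The scaled log2 fold change was -0.93 (SE 0.23, interval -1.48 to -0.39, limma adjusted p = 0.114), and after quantile normalization it was -1.13 (limma adjusted p = 0.0168).

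Nasp made up most of the chaperone footprints in both genotypes, and a smaller share in SKO. Of the summed FPKM of the 7 measured chaperone genes it held 70.4%, 76.9% and 77.3% in the SKO libraries and 87.2%, 86.1% and 85.6% in the wild-type libraries. Its ratio to the other 6 together, picked with the values in view, was 2.37, 3.33 and 3.41 in SKO and 6.80, 6.20 and 5.95 in wild type. The groups did not overlap, and the log2 difference of -1.07 is a description. Its permutation p is not given, since the ratio was picked with the values in view.

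H3.3 footprints were higher relative to the chaperones in SKO. The summed FPKM of H3f3a and H3f3b over that of the 7 chaperone genes was 0.673, 0.717 and 0.859 in the SKO libraries and 0.170, 0.258 and 0.240 in the wild-type libraries. The log2 difference was 1.77, or 3.40-fold (two-sided exact permutation p = 0.1, the smallest possible, 0.15 adjusted over the 3 planned ratios). Without Nasp in the sum, an alternative added after the data were seen, the difference was 0.90, or 1.87-fold, and the groups still did not overlap. The ratio of H3f3b to Nasp alone, also chosen after the values were seen, was 0.488, 0.541 and 0.604 in SKO and 0.0936, 0.105 and 0.113 in wild type. It sets the member with the largest positive log2 fold change against the one with the largest negative one. Its log2 difference of 2.39 is therefore a description, and its permutation p is not given.

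**Figure D2:**
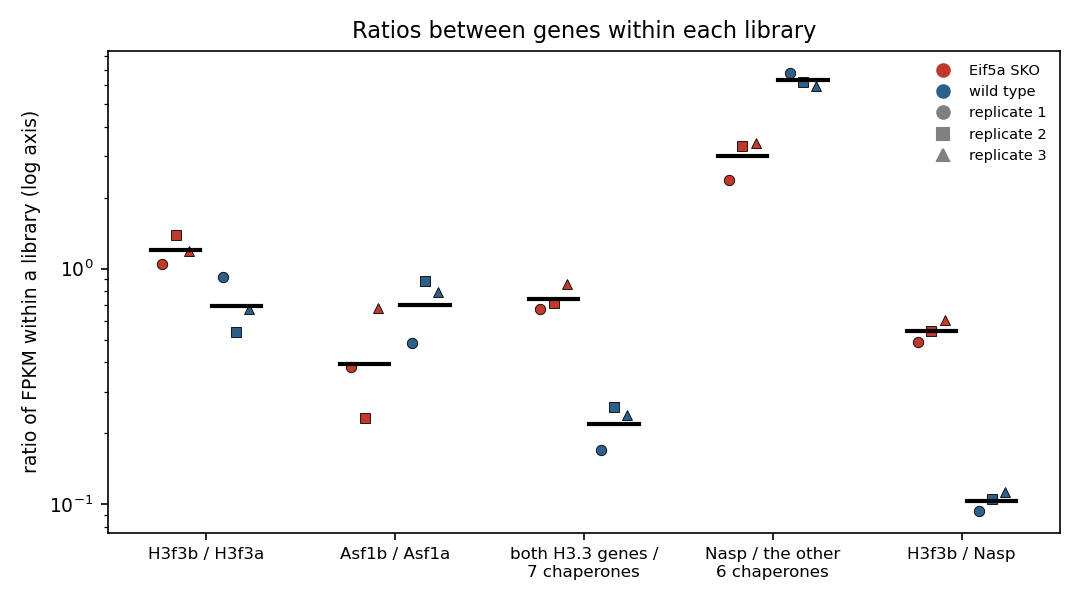
Ratios of FPKM between genes within each library (log axis), with SKO in red, wild type in blue and bars at the mean of the log ratios. The H3f3b to Nasp ratio lies at 0.488 to 0.604 in SKO and 0.0936 to 0.113 in wild type, while the Asf1b to Asf1a ratios of the genotypes overlap.

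The genes of the HIRA complex had lower densities than Nasp and the H3.3 genes in every library, and none of them passed the test. Hira (gene 15260, chromosome 16, 18876750 to 18970309) had 3.84, 3.68 and 4.08 FPKM in SKO and 6.35, 4.85 and 10.1 FPKM in wild type. All SKO libraries lay below all wild-type libraries, a separation in that direction found in 4.78% of all tested rows. The log2 fold change was -0.69 (SE 0.36, 95% interval -1.49 to 0.11, limma adjusted p = 0.522), and -0.82 with TMM-type scaling (interval -1.51 to -0.13, limma adjusted p = 0.244).

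Ubn1 (gene 170644, chromosome 16, 5050057 to 5086289) had 3.21, 6.87 and 1.85 FPKM in SKO and 3.75, 3.54 and 4.44 FPKM in wild type. Cabin1 (gene 104248, chromosome 10, 75646110 to 75764357) had 17.0, 6.74 and 4.81 FPKM in SKO and 7.36, 3.80 and 9.29 FPKM in wild type. In Ubn1 the SKO libraries lay on both sides of the wild-type range. In Cabin1 the groups overlapped, and SKO replicate 1 stood well above the other libraries. The log2 fold changes were -0.10 for Ubn1 (95% interval -1.04 to 0.83) and 0.32 for Cabin1 (interval -0.79 to 1.44), with limma adjusted p of 0.960 and 0.863. Without SKO replicate 1 the Cabin1 value was -0.15, and without SKO replicate 3 the Ubn1 value was 0.23. Ubn2, the paralogue of Ubn1 that can take its place in the complex, was denser than Ubn1 in every library, by 5.08, 2.57 and 5.57 times in SKO and by 3.24, 4.55 and 2.03 times in wild type.

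Daxx (gene 13163, chromosome 17, 33909404 to 33915590) had 24.2, 52.7 and 33.9 FPKM in SKO and 15.8, 29.3 and 34.0 FPKM in wild type. The groups overlapped, and the log2 fold change was 0.47 (SE 0.45, 95% interval -0.54 to 1.48, limma adjusted p = 0.741). Daxx was denser than Hira in all 6 libraries, by 6.31, 14.3 and 8.32 times in SKO and by 2.48, 6.03 and 3.36 times in wild type. The ratios of the genotypes did not overlap, by a narrow margin, and were not tested.

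The ASF1 genes did not differ detectably between the genotypes. Asf1a (gene 66403, chromosome 10, 53596961 to 53609225) had 10.7, 20.3 and 16.5 FPKM in SKO and 6.70, 9.68 and 17.3 FPKM in wild type (log2 fold change 0.51, 95% interval -0.46 to 1.49, limma adjusted p = 0.700). Asf1b (gene 66929, chromosome 8, 83955694 to 83970195), the form linked to dividing cells, had 4.10, 4.72 and 11.2 FPKM in SKO and 3.24, 8.59 and 13.7 FPKM in wild type (log2 fold change -0.25, interval -1.44 to 0.94, limma adjusted p = 0.909). Without wild-type replicate 3 the Asf1b value was 0.15. Asf1a was the denser paralogue in all 6 libraries, with an Asf1b to Asf1a ratio of 0.382, 0.232 and 0.680 in SKO and 0.484, 0.888 and 0.795 in wild type. These ratios overlapped (log2 difference -0.83, two-sided exact permutation p = 0.2, and 0.2 adjusted over the 3 planned ratios).

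**Figure D3:**
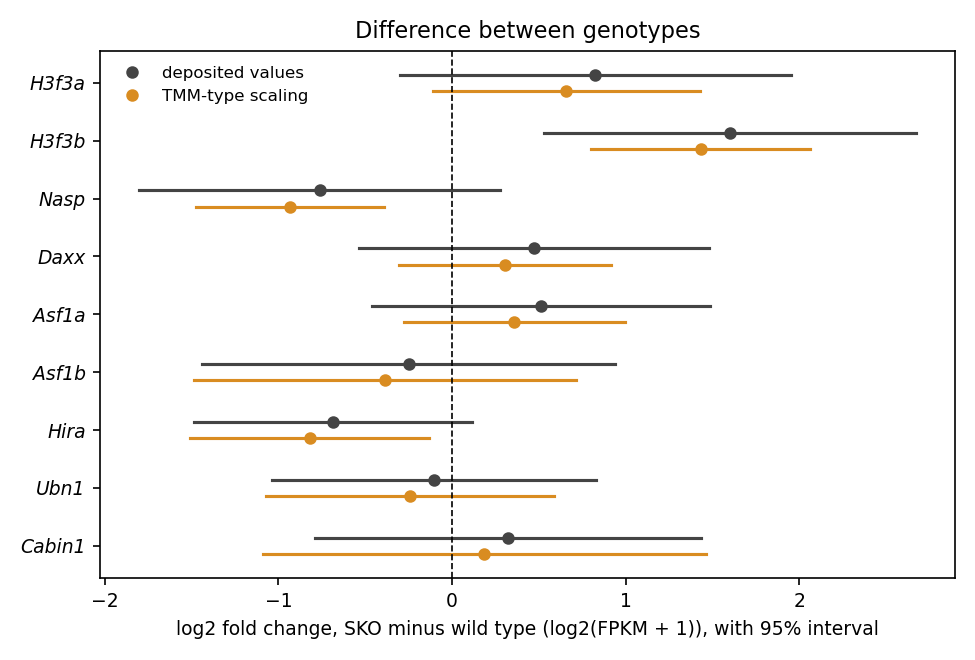
Log2 fold change of each member, SKO minus wild type, on the log2(FPKM + 1) scale with its 95% interval, for the deposited values (grey) and after TMM-type scaling (orange). The H3f3b interval lies above 0 with both, while those of Hira and Nasp lie below 0 after scaling alone.

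In the order of mean density, SKO ran Nasp, H3f3b, H3f3a, Daxx, Asf1a, Cabin1, Asf1b, Ubn1 and Hira. Wild type ran Nasp, H3f3a, H3f3b, Daxx, Asf1a, Asf1b, Hira, Cabin1 and Ubn1. In SKO the ranges of neighbours overlapped except between H3f3a and Daxx and between Daxx and Asf1a, and in wild type except between Nasp and H3f3a. Rank within a library, which does not depend on scaling, is given for members whose ranges by genotype were separate. H3f3a was separate by a narrow margin, at percentile 96.12 to 97.2 in SKO and 92.7 to 96.09 in wild type. The ranges of the other members overlapped, Ubn1 at 27.2 to 60.4 in SKO and 51.2 to 56.0 in wild type. How many of all rows separate by rank was not counted. Among tested rows H3f3b lay at percentile 96.6 to 97.7 in SKO and 92.1 to 93.4 in wild type. Nasp lay at percentile 98.4 to 98.6 in SKO and 99.3 in each wild-type library. Hira lay at percentile 44.8 to 54.3 in SKO and 59.8 to 71.4 in wild type.

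Other H3 genes had higher mean footprint densities in SKO than in wild type, and none passed the adjusted threshold with the deposited values or TMM-type scaling. Of 20 listed names 9 had a row and 8 passed the filter on low values. All 8 had a positive log2 fold change, with a median of 1.22 against 0.13 for all tested rows, and in 6 of the 8 the SKO libraries all lay above the wild-type ones, beside 10.9% of all rows. With the deposited values 6 had an unadjusted p under 0.05 in limma, beside 8.15% of all rows higher in SKO at that level, and with TMM-type scaling 7 did, beside 8.9%. H3c1 passed after quantile normalization (limma adjusted p = 0.0358), beside 2.86% of all rows. Low rows enter the filter more easily through the group where they are high, so these counts are a description.

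H3f4, a testis H3 gene with the synonym H3t in RefSeq (chromosome 11, 58961711 to 58962273), had 31.4, 75.5 and 93.9 FPKM in SKO and 6.93, 17.5 and 30.0 FPKM in wild type. The SKO libraries all lay above the wild-type libraries, and the log2 fold change was 1.90 (limma adjusted p = 0.295). H3f3c, a further H3.3-type gene on chromosome 2 whose reads may be shared with H3f3a, had 29.8, 49.5 and 52.4 FPKM in SKO and 11.4, 25.9 and 29.9 FPKM in wild type (log2 fold change 1.00, limma adjusted p = 0.464). H3c1, a canonical H3 gene of the chromosome 13 cluster, had 9.64, 7.98 and 12.6 FPKM in SKO and 1.06, 2.44 and 1.29 FPKM in wild type. Its log2 fold change was 2.11 (limma adjusted p = 0.0775, and 0.0560 with TMM-type scaling). The canonical H3 genes are near-identical in coding sequence, so their reads may be shared.

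**Figure D4:**
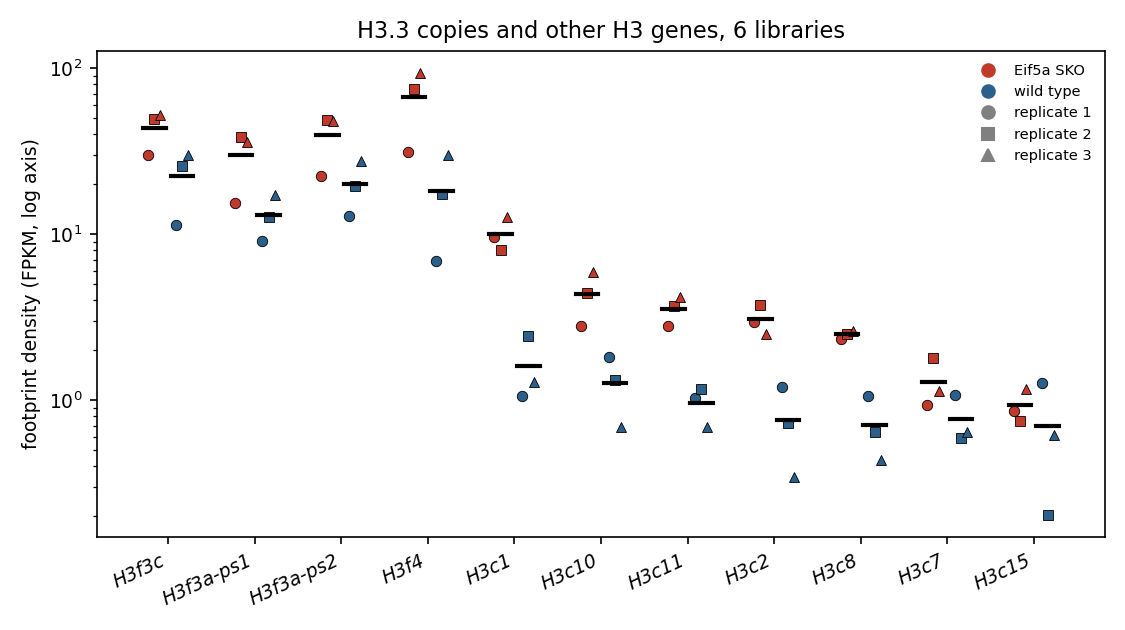
Footprint density (FPKM, log axis) of H3f3c, the H3f3a pseudogenes and other H3 genes in each library, SKO in red and wild type in blue, with bars for group means. H3f4 lies at 31.4 to 93.9 FPKM in SKO and 6.93 to 30.0 FPKM in wild type, and the canonical H3c genes lie lower, H3c1 at 7.98 to 12.6 FPKM in SKO and 1.06 to 2.44 FPKM in wild type.

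Further H3-H4 chaperone genes gave no call with the deposited values or TMM-type scaling. Of 27 listed genes 25 were tested, 0 passed in limma, and 1, Rbbp7, had an unadjusted p under 0.05 with the deposited values, beside 8.15% of all rows higher in SKO at that level. With TMM-type scaling 3 were higher at that level, Rbbp7, Set and Npm1, beside 8.9% of rows, and 1 was lower, Dek, beside 6.71%. After that scaling the SKO libraries of Rbbp7, Set and Npm1 all lay above the wild-type ones, beside 11.6% of rows, and those of Chd2 all lay below, beside 9.85%. The median log2 fold change was 0.27, against 0.13 for all tested rows, and 16 of 25 lay above the all-row median. The densest was Npm1, which encodes nucleophosmin, a nucleolar histone chaperone, at 46.8, 110.1 and 91.9 FPKM in SKO and 30.6, 35.8 and 57.4 FPKM in wild type (log2 fold change 0.95, limma adjusted p = 0.486). Nap1l4, a nucleosome assembly protein gene, had 32.9, 85.0 and 60.7 FPKM in SKO and 21.2, 39.5 and 56.8 FPKM in wild type (limma adjusted p = 0.700). With the deposited values the groups overlapped in both genes. Dek, which encodes a chromatin protein able to chaperone H3.3, had 11.2, 31.0 and 12.8 FPKM in SKO and 21.9, 19.8 and 38.6 FPKM in wild type (limma adjusted p = 0.680). X-linked Rbbp7, named like Set and Chd2 after its values were seen, encodes a histone-binding subunit of several chromatin complexes. It had 8.64, 15.0 and 5.07 FPKM in SKO and 1.37, 1.71 and 1.40 FPKM in wild type (log2 fold change 1.97, limma adjusted p = 0.135, and 0.0449 after quantile normalization).

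Markers of Sertoli, Leydig and peritubular cells had higher means in SKO, beside the higher values of the H3.3 genes, which nearly all cells express. So did 6 of the 8 round spermatid markers. Of all 15578 tested rows, 9251 had a positive log2 fold change, to be read beside each count of higher means here. The summed densities of macrophage markers overlapped between the genotypes. The sums of the 2 measured endothelial markers did too, but both averaged under 1 FPKM and were not tested. Of 16 measured markers of the first 3 cell types, 1 passed the test with the deposited values, peritubular Dcn (limma adjusted p = 0.0470), beside 0.128% of all rows. With TMM-type scaling 3 passed, Dcn, peritubular Acta2 and Sertoli Clu (limma adjusted p = 0.0411 for each), beside 1.02%. All 5 measured Sertoli markers of 12 listed had a higher SKO mean, with a summed density of 60.9 to 83.8 FPKM in SKO and 13.7 to 25.6 FPKM in wild type. All 7 Leydig markers of 9 listed did so too, at 61.2 to 118 FPKM in SKO and 13.6 to 18.6 FPKM in wild type. The 4 peritubular markers of 8 listed summed to 25.8 to 39.2 FPKM in SKO and 4.54 to 6.19 FPKM in wild type. The 8 spermatocyte markers, 5 of them with a higher SKO mean, stand for the cells before the meiotic divisions. They summed to 104.7 to 171 FPKM in SKO and 69.7 to 151 FPKM in wild type. Of the 6 measured spermatogonial markers of 8 listed, 5 had a higher SKO mean. Only 4 of the 6 were tested, and 2 of these had a positive log2 fold change. The median of the 4 was 0.049, against 0.13 for all tested rows. All 6 summed to 15.8 to 20.5 FPKM in SKO and 12.6 to 16.9 FPKM in wild type. The blood markers ran the other way, with all 4 measured of 5 listed lower in SKO, at 15.2 to 42.0 FPKM in SKO and 50.4 to 109.96 FPKM in wild type. The 5 measured macrophage markers of 6 listed, 2 of them with a higher SKO mean, summed to 4.53 to 8.45 FPKM in SKO and 4.90 to 9.13 FPKM in wild type. In 1 of these 5 all SKO libraries lay above all wild-type ones, beside 10.9% of all tested rows. The same separation was found in 3 of 5 Sertoli, 5 of 7 Leydig and 4 of 4 peritubular markers. It was found in 1 of 6 elongating spermatid, 0 of 8 spermatocyte, 0 of 6 spermatogonial and 0 of 2 endothelial markers. In all 4 blood markers every SKO library lay below every wild-type library, beside 4.78% of all tested rows. These counts are a description. The 2 measured endothelial markers of 5 listed, 1 of them with a higher SKO mean, summed to 1.03 to 1.68 FPKM in SKO and 1.11 to 1.48 FPKM in wild type. The 6 elongating spermatid markers, 3 of them with a higher SKO mean, summed to 94.8 to 126 FPKM in SKO and 74.7 to 138 FPKM in wild type. Listed markers beyond the measured ones, Sox9 and Wt1 of Sertoli cells among them, are not used here. The part of these cells in the values of the H3.3 genes, Nasp and Hira was not tested.

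The genes whose pattern was most like that of the H3.3 genes were sought among 1567 other named protein-coding rows averaging 20 FPKM or more, by Pearson correlation of scaled log2 values over the 6 libraries. For H3f3b they were Mael (r = 0.995), Map1lc3a (0.994), Hdgfl1 (0.993), Elof1 (0.993) and Actb (0.993). For H3f3a they were AA467197 (0.994), Usp42 (0.993), Pfdn1 (0.985), Dmac2l (0.982) and Ranbp9 (0.981). The lists share no gene. These are the highest of many correlations over 6 points that share libraries and 2 groups, and are given as a description.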

How the data were processed

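Ribosome footprints of 6 mouse round spermatid libraries were analysed, grouped by genotype label, with replicate numbers from the titles. The authors deposited FPKM, 1 value for each symbol in each library, and no counts are used here. Per the submitters' processing notes, the build was mm10 and the tools included Cutadapt, Bowtie2, STAR and Cufflinks, whose roles they do not state. How multi-mapping reads were treated is not given in the sources used here. Of 2896 genes under 1 FPKM in all 6 libraries, and above 0 in several, 26.2% had values in whole-number steps within 2%. This was too few to recover reads, so no count model was used.

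The 15578 rows averaging 1 FPKM or more were tested, and 7192 left out, by limma 3.58.1 in R 4.3.3 (eBayes with a trend, pseudocount 1), a scale that understates changes of low genes. Within-library ratios were compared by exact permutation. Coordinates and symbols come from RefSeq, GRCm38. The members and lists were chosen with earlier results of these data known. All members were named, with, from each other list, members past the threshold or else the 3 densest, and the pseudogenes and most correlated rows. Alternatives covered scaling, pseudocount, filter, eBayes trend, replicate block and each library left out. Protein sequences are not used here.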

Additional observations from a re-analysis of the deposited data

How the results depend on the processing

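Members not past the test with the deposited values stayed so in the alternatives run, with 1 exception. After quantile normalization 2 members passed (H3f3b and Nasp), against 0 otherwise, and 1 other H3 chaperone (Rbbp7). Directions were kept for H3f3a, H3f3b, Hira, Daxx, Asf1a and Nasp in all 21 alternatives. H3f3b ran from 1.28 to 1.97 with limma adjusted p from 0.0181 to 0.574, and Nasp from -1.13 to -0.46 with limma adjusted p from 0.0168 to 0.803. Leaving out 1 library turned Cabin1, Ubn1 and Asf1b, whose values ran from -0.15 to 0.67, from -0.50 to 0.23 and from -0.74 to 0.15, and under TMM-type scaling Cabin1 ran from -0.43 to 0.53 (-0.12 without wild-type replicate 2) and Ubn1 from -0.52 to 0.085. The cause was not tested. The log2 differences of the ratios kept their directions, H3f3b over H3f3a at 0.60 to 0.99 and H3f3b over Nasp at 2.31 to 2.47. Ubn1 has no value at a mean of at least 5 FPKM, and the planned ratio of Atrx to Daxx was not run.

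Over all rows, 17 were called higher and 3 lower in SKO with the deposited values. The counts were 119 and 40 with TMM-type scaling, 248 and 198 with quantile normalization, 3 and 1 at pseudocount 5, 4 and 1 without a filter, and 78 and 8 at a mean of at least 5 FPKM. With 1 library left out they ran from 3 to 28 higher and from 1 to 4 lower, and under TMM-type scaling from 3 to 21 higher and from 1 to 7 lower (6 higher without SKO replicate 1 or wild-type replicate 2, 10 without SKO replicate 3). With the replicate number as a block they were 4 and 1, and 3 and 1 with TMM-type scaling as well. The replicate numbers are not stated to mark shared litters or days, so the main fit had no block. Same-numbered libraries correlated at 0.093, 0.00016 and 0.024 in their deviations from the group means. The deviations of SKO replicates 1 and 3 correlated best with the wild-type library of the same number, but those of SKO replicate 2 with wild-type replicate 3. With the block 0 members passed, and H3f3b had a limma adjusted p of 0.172. The 95% interval of H3f3a then lay above 0, at 0.06 to 1.59 (limma adjusted p = 0.350). Since depth is unknown, no counting error could be given for any member.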
